A study of Homo sapiens with 18 samples.

Results

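The mitochondrial genome is a small circle of DNA that carries 37 genes, and in the gene count table of this ATAC-seq series these were the rows whose symbol starts with MT-. They were 37 of 54425 genes, and they fell into 13 genes for proteins of the respiratory chain and ATP synthase, 2 genes for the rRNAs of the mitochondrial ribosome and 22 genes for tRNAs. The rule used the symbol alone and no measured value. Each gene was followed as its share of the summed count of all 37 genes in a library, the mitochondrial total, so that the composition of the mitochondrial reads could be compared across settings and days.

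The cells were HEK293T, an established human embryonic kidney line that carried fusion genes of the t(4;11) leukemia translocation, in which the genes MLL and AF4 are joined. In AF4-MLL cells the AF4-MLL transgene was inducible, in MLL-AF4 cells the MLL-AF4 transgene was inducible, and in co-expression cells a constitutive MLL-AF4 transgene was combined with inducible AF4-MLL, which the study's methods describe as added by a second, transient transfection. Each setting was sampled on day 3, after 48 h of doxycycline at 1 µg/ml, and on day 28, long after the drug had been withdrawn, with 3 biological replicates per group and 18 libraries in all. All transgenes sat in Sleeping Beauty vectors in transfected cells, every setting received doxycycline, and no cells without a fusion transgene were among the libraries analysed here. Day, time in culture, induction of the transgenes and the presence of doxycycline can therefore not be told apart. For the second, transient transfection the methods also give Blasticidin over the same 48 h and loss of the plasmid afterwards, which coincide with day too. The labels call the replicates biological and say no more, so that p-values measure the spread between these libraries, which may be technical.

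Mitochondrial DNA has no nucleosomes. It is packaged by the protein TFAM and is open to the transposase used in ATAC-seq, which cuts accessible DNA and attaches adapters, so that mitochondrial reads are abundant in such libraries. The reads count DNA, not RNA, and a gene's count says how many sequenced insertions fell on it, not how strongly it was transcribed. Both strands of the circle are transcribed as long precursors, and the tRNA genes stand between the protein and rRNA genes, where excision of the tRNAs releases the other transcripts. Many copies of the circle are present per cell, and each carries every gene once, so that the share of a gene in the mitochondrial total would be set by its length if insertion and counting were even.

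Libraries held 442159 to 3539937 counts. The mitochondrial total was 144592 to 531983 counts on day 3, which was 32.7 to 45.6% of all counts, and 682545 to 2423552 counts on day 28, or 63.6 to 68.5%. Both ranges were free of overlap between days, so that depth on the mitochondrial genes and day cannot be told apart in anything that follows. Over the 29 genes with at least 100 counts in every library, Pearson's r of log2 shares between libraries was 0.991 to 1.000 over 153 pairs, as a description across genes that share length and sequence. The library least like its own group was the third co-expression replicate of day 3, whose log2 shares deviated from the mean of the other 2 by a root mean square of 0.132, against 0.0237 to 0.0928 for the other 17 libraries. The labelled kidney line could not be checked sharply. Of the kidney lineage markers PAX2 had 17.6 to 47.3 nuclear CPM (counts scaled to a common nuclear library size), LHX1 15.9 to 40.0 and EYA1 31.4 to 91.2. Of the blood markers PTPRC had 13.8 to 45.4, SPI1 25.9 to 68.7 and CD3E 0 to 11.8, so that none of these 6 genes was at 0 in every library. Counts over gene bodies in this assay do not measure transcripts.

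Among protein and rRNA genes, a longer gene held a larger mean share over the 18 libraries without exception, though not in every group. MT-ND5, the longest (positions 12337 to 14148 of chromosome MT, 1812 bp in the RefSeq annotation of GRCh38.p14), held 14.5% of the mitochondrial total as a mean over the 18 libraries, and MT-ATP8, the shortest (positions 8366 to 8572, 207 bp), held 1.13%. Over the 15 protein and rRNA genes the Spearman correlation of length with mean share was 1 and the Pearson correlation of their log2 values was 0.989, given as a description across genes. All 13 protein genes together held 75.9%, the 2 rRNA genes 17.1% and the 22 tRNA genes 6.96%.

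**Figure D1:**
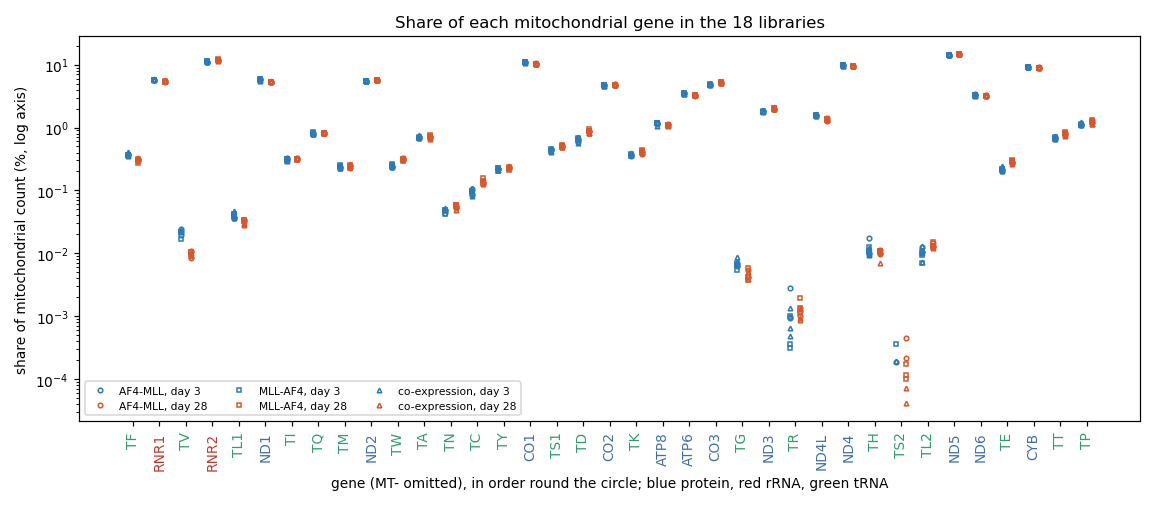
Share of each of the 37 genes in the mitochondrial count (y axis, percent, log axis) for every library, with genes in their order round the circle from MT-TF to MT-TP (x axis). Symbols mark the setting and colours the day, and libraries with 0 counts of MT-TS2 are not drawn. The 18 libraries lie on top of each other for protein and rRNA genes, while tRNA genes range from 1.17% for MT-TP to 0.000106% for MT-TS2, and MT-TV is lower in every day 28 library.

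Per kilobase the protein genes lay within a 1.64-fold range, from 4.89% of the total per kb for MT-ND4L to 8.02% per kb for MT-ND5, with a class value of 6.66% per kb. Of the 7 subunits of complex I, the NADH dehydrogenase, MT-ND5 and MT-ND4 (7.04% per kb) were densest, and MT-ND1 (5.83), MT-ND2 (5.38), MT-ND3 (5.52), MT-ND6 (6.15) and MT-ND4L were lower. MT-CYB, the only subunit of complex III encoded here, stood at 7.94% per kb, close to MT-ND5. The 3 core subunits of complex IV, cytochrome c oxidase, were alike with 6.90% per kb for MT-CO1, 6.90 for MT-CO2 and 6.41 for MT-CO3. Both subunits of ATP synthase were on the low side, MT-ATP6 with 4.95% and MT-ATP8 with 5.48% per kb, and their reading frames overlap each other by 46 bases, so that a read there lies in both genes. The 12S rRNA gene MT-RNR1 (positions 648 to 1601) had 5.83% per kb and the 16S rRNA gene MT-RNR2 (positions 1671 to 3229) 7.40% per kb.

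In shares of the total, MT-RNR2 with 11.5% came next after MT-ND5, followed by MT-CO1 with 10.6%, MT-ND4 with 9.70% and MT-CYB with 9.06%. MT-ND2 (5.60%), MT-ND1 (5.57%) and MT-RNR1 (5.57%) were so near each other that their order changed between groups. MT-CO3 held 5.02%, MT-CO2 4.72%, MT-ATP6 3.37% and MT-ND6 3.23%. The shares of MT-ND3 (1.91%) and MT-ND4L (1.45%) were the lowest of the complex I genes. Replicates agreed closely, with a mean coefficient of variation of 0.758% for MT-ND2 to 2.92% for MT-ND4L within groups. Across all 18 libraries the highest share of a protein or rRNA gene was at most 1.28 times its lowest, and for MT-ND2 1.05 times.

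**Figure D2:**
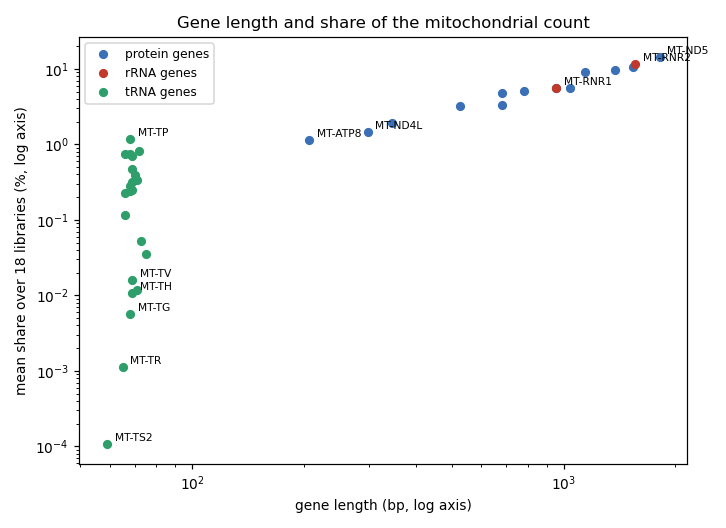
Mean share of the mitochondrial count over the 18 libraries (y axis, percent, log axis) against gene length in RefSeq (x axis, bp, log axis), 1 point per gene, coloured by class. Protein and rRNA genes follow length from 1.13% at 207 bp to 14.5% at 1812 bp, while the tRNA genes, all of 59 to 75 bp, spread over 4 orders of magnitude.

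The tRNA genes did not follow length. They were 59 to 75 bp long, yet their shares ran from 1.17% for MT-TP, the tRNA gene for proline beside the control region (positions 15956 to 16023), to 0.000106% for MT-TS2, 1 of the 2 serine tRNA genes (positions 12207 to 12265). MT-TP had 17.3% of the total per kb, above every protein gene, and 4 more tRNA genes were also above them, MT-TQ for glutamine with 11.3% per kb, MT-TT for threonine with 11.3, MT-TD for aspartate with 11.1 and MT-TA for alanine with 10.2. The counts of MT-TP in the 3 replicates were 6028, 1610 and 4552 on day 3 and 16286, 24078 and 16112 on day 28 for AF4-MLL. They were 3413, 3344 and 3006 and 15460, 20839 and 12037 for MLL-AF4, and 6345, 4999 and 3404 and 30240, 15895 and 7775 for co-expression. MT-TS2 had 22 counts in all 18 libraries together, between 0 and 9 per library, and 8 libraries had none. A count of 0 allows up to 3 counts, which was 0.000241 to 0.00207% of the mitochondrial total in those 8 libraries for counting error only, so the day and setting of MT-TS2 could not be compared.

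The low tRNA genes were those with no room around them. For each tRNA gene the bases between it and the nearest genes on its own strand were counted from the RefSeq positions, a description made after the shares had been seen and therefore given without a test. The 6 tRNA genes that touch a neighbour on both sides (MT-TV for valine, MT-TL2 for leucine, MT-TH for histidine, MT-TG for glycine, MT-TR for arginine and MT-TS2) held 0.000106 to 0.0158% each and 0.0451% together. The 4 genes with 1 to 69 free bases (MT-TL1 for leucine, MT-TN for asparagine, MT-TC for cysteine and MT-TK for lysine) held 0.0357 to 0.390% each. The 12 genes with 70 or more free bases, MT-TP, MT-TQ, MT-TD, MT-TT and MT-TA among them, held 0.224 to 1.17% each and 6.32% together. With neighbours on either strand counted, 7 genes had no free base. The added one was MT-TI for isoleucine, which overlaps MT-TQ on the other strand and held 0.316%, far above the 6 others. How the counting treated reads that touch 2 genes is not given in the sources used here, and its part in the pattern was not tested.

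Copies of mitochondrial sequence in the nuclear genome can share reads with the genes themselves. The table held 397 genes named as nuclear copies of 14 members, all 13 protein genes and MT-RNR2, and their summed count was 9.24 to 9.44% of the mitochondrial total in every library. The copies were unevenly spread. Relative to the count of the gene, the copies held 39.9 to 42.0% for MT-ATP6, 35.1 to 38.4% for MT-ND2, 26.5 to 28.0% for MT-CO1, 15.5 to 19.3% for MT-ND1, 12.9 to 14.0% for MT-CO2, 11.3 to 12.7% for MT-CO3, 7.11 to 8.84% for MT-ND6 and 6.10 to 12.7% for MT-ATP8, and at most 2.21% for the other 6. The levels of genes with copies are therefore uncertain, by an amount that these counts do not bound. The treatment of reads that match both a gene and a copy is not given in the sources used here. MT-RNR1 and the tRNA genes had no copy named in the table, which does not show that they have none. For MT-ATP8 the copies went from a mean of 6.64% of the gene's count on day 3 to 11.5% on day 28, and for MT-ND1 from 16.2 to 18.5%, beside a lower share of both genes on day 28. For MT-CO3, whose share was higher on day 28, the copies went from 12.4 to 11.6%. The directions were not opposite for every gene. The copies of MT-ND2 went from 35.8 to 37.7% and those of MT-RNR2 from 1.54 to 1.66% beside higher shares of both genes, and those of MT-ND4L from 0.178 to 0.146% beside a lower share. The part of shared reads in these changes was not tested.

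The first comparison asked how each gene differed between day 28 and day 3 relative to the whole library. With counts scaled by TMM over all genes, a factor that centres most genes at no change, every member that could be tested was higher on day 28 in AF4-MLL cells (36 of 36) and in co-expression cells (36 of 36), and 35 of 36 in MLL-AF4 cells (edgeR quasi-likelihood test, Benjamini-Hochberg adjusted p under 0.05 over 17660 genes). DESeq2 called 34 in each setting. Of all genes tested, 0.453, 0.436 and 1.29% were called higher in these comparisons. The calls of members are not separate results, as the level of each on this scale moves with the mitochondrial part of the library. The median log2 change over members was 1.83 in AF4-MLL, 1.45 in MLL-AF4 and 1.77 in co-expression cells, where the median over all genes was between −0.0033 and 0.0044. The protein genes moved as a block, with changes from 1.58 (MT-ND4L) to 1.93 (MT-ND3) in AF4-MLL cells, 1.22 to 1.58 for the same 2 genes in MLL-AF4 cells and 1.5 to 1.87 with co-expression.

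MT-TV was the exception. Its log2 change by edgeR was 0.56 ± 0.13 (SE, adjusted p = 0.00947) in AF4-MLL cells and 0.56 ± 0.13 (SE, adjusted p = 0.00841) with co-expression, the lowest of all members. With MLL-AF4 it was 0.43 ± 0.15 (SE, adjusted p = 0.0979) and was not called (edgeR). When counts were scaled by library size alone the median of all genes fell by 0.87 to 1.07 on the log2 scale, and MT-TV then took the opposite sign, with log2 changes of −0.48, −0.45 and −0.54. The median over members was then 0.76 in AF4-MLL, 0.57 in MLL-AF4 and 0.73 in co-expression cells, so the size of the rise depends on the scaling. By edgeR with TMM, the cysteine tRNA gene MT-TC had the largest change in AF4-MLL cells, 2.31 ± 0.15 (SE, adjusted p = 7.08e-35), and one equal to that of MT-TL2 at the head of the co-expression cells, 2.11 ± 0.15 (SE, adjusted p = 1.99e-31). In MLL-AF4 cells it was exceeded by MT-TL2 and by MT-TR, whose counts were 1 to 32 per library. These changes stood beside the difference in the mitochondrial part of the library between days, and the amount of mitochondrial DNA in the nuclei preparations and the number of insertions per molecule cannot be told apart in such counts.

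**Figure D3:**
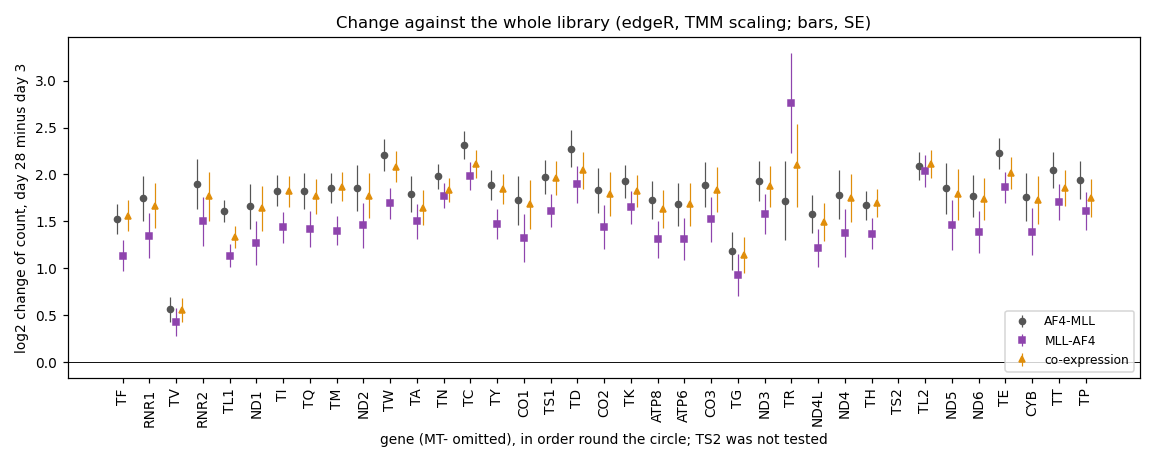
Log2 change of each gene's count from day 3 to day 28 against the whole library (y axis) for the 3 settings, with genes in their order round the circle (x axis) and bars for the standard error (edgeR). Protein genes lie between 1.22 and 1.93, and MT-TV is the lowest gene of each setting with 0.43 to 0.56.

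The composition of the mitochondrial total shifted far less. Protein genes held 76.5 to 76.8% of it on day 3 and 75.2 to 75.7% on day 28 in AF4-MLL cells. Corresponding ranges were 76.2 to 76.7% and 74.9 to 75.5% with MLL-AF4, and 75.8 to 76.5% and 75.5 to 75.9% with co-expression. Only in the co-expression cells did the libraries of the 2 days overlap. Averaged over settings the share was lower on day 28 by 0.900 percentage points (difference −0.900, exact stratified permutation test, two-sided p = 0.00125, adjusted over the 3 classes 0.00188), with differences of −1.20, −1.19 and −0.313 in the 3 settings. The tRNA genes took most of the difference. They held 6.64, 6.47 and 6.59% on day 3 and 7.25, 7.26 and 7.38% on day 28 in AF4-MLL cells. The same share was 6.55, 6.66 and 6.54% and then 7.61, 7.32 and 7.32% with MLL-AF4, and 6.90, 6.78 and 6.51% and then 7.26, 7.07 and 7.11% with co-expression. All 9 day 28 libraries were above all 9 day 3 libraries, and the averaged difference of 0.658 points had the smallest p the 8000 arrangements can give (exact p = 0.00025, adjusted 0.00075). Within a single setting, 3 libraries against 3 cannot give an exact p below 0.1.

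**Figure D4:**
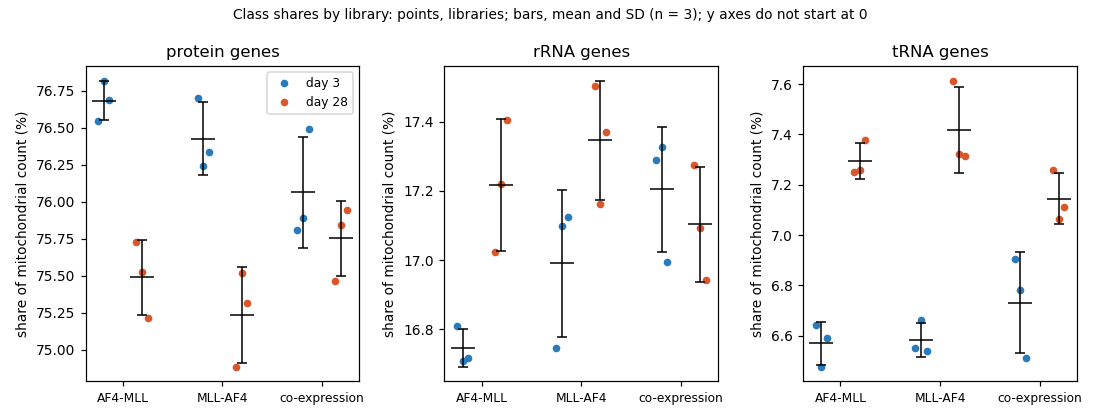
Share of protein, rRNA and tRNA genes in the mitochondrial count (y axes, percent, not starting at 0) in each library, by setting (x axis) and day (colour), with mean and SD of 3 libraries. The tRNA share is higher in every day 28 library (7.07 to 7.61%) than in any day 3 library (6.47 to 6.90%), while the rRNA share overlaps between days in the co-expression cells.

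The rRNA genes held 16.7 to 17.3% on day 3 and 16.9 to 17.5% on day 28. Their averaged difference was 0.242 points (exact p = 0.0308, adjusted 0.0308), with 0.472 and 0.357 in the single-fusion settings (AF4-MLL, then MLL-AF4) and −0.101 with co-expression, and it rested on single libraries, as it lost its call when any of 4 libraries was left out (averaged differences of 0.202 to 0.216). Behind this sum the 2 genes went opposite ways. MT-RNR1, which makes the 12S rRNA of the small ribosomal subunit, held 5.61, 5.72 and 5.67% on day 3 and 5.36, 5.41 and 5.48% on day 28 in AF4-MLL cells. MT-RNR1 in MLL-AF4 cells held 5.66, 5.67 and 5.74% on day 3 and 5.40, 5.38 and 5.43% on day 28. MT-RNR1 with co-expression held 5.66, 5.82 and 5.83% on day 3 and 5.51, 5.43 and 5.43% on day 28. It was lower in all day 28 libraries of each setting. MT-RNR2, which makes the 16S rRNA of the large subunit, held 11.2, 11.0 and 11.0% on day 3 and 11.7, 11.8 and 11.9% on day 28 in AF4-MLL cells. MT-RNR2 in MLL-AF4 cells held 11.1, 11.4 and 11.4% on day 3 and 12.1, 11.8 and 11.9% on day 28. MT-RNR2 with co-expression held 11.6, 11.5 and 11.2% on day 3 and 11.8, 11.7 and 11.5% on day 28, and only there did the days overlap. The ratio of 16S to 12S counts was 1.92 to 2.06 in day 3 libraries and 2.12 to 2.24 in day 28 libraries, without overlap. The 9 genes coded on the light strand, MT-ND6 and 8 tRNA genes, summed to 6.82 to 7.14% in the day 3 libraries and 7.08 to 7.29% in those of day 28, an averaged difference of 0.219 points with overlap between days.

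To test single genes within the mitochondrial total, edgeR was fitted to all 17660 genes with the mitochondrial total as the size of a library for members and the TMM-scaled nuclear count for all other genes. Averaged over the 3 settings, 14 of 36 members were higher and 10 lower on day 28, where 2.07 and 1.89% of all genes tested were called in these directions. The median log2 change over members was 0.04 and over all genes 0.01. The percentages over all genes, here and below, are not a matched background. Nuclear counts of 297567 to 1116385 per library were spread over 17624 tested nuclear genes and the untested ones. MT-ND5 alone had a median of 89239, so that much smaller changes could be called in most members. Shares of a total are also tied, as a rise of some members lowers the others. By setting, 11 members were called in AF4-MLL cells (0.402% of all genes), 19 in MLL-AF4 cells (2.47%) and 9 with co-expression (0.379%). At an unadjusted p under 0.05 by edgeR there were 22, 24 and 20 members in the same order, beside 9.15, 15.5 and 9.35% of all genes. The adjusted threshold depends on how many genes have a low p in a contrast, so the numbers called do not rank the settings. The 3 day 28 libraries lay wholly above or below the 3 day 3 libraries in 29, 28 and 23 members, where 22.7, 24.2 and 23.1% of all genes tested did so, and for 20 members (11 higher, 9 lower) this held in the same direction in the 3 settings, against 2.45% of all genes.

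**Figure D5:**
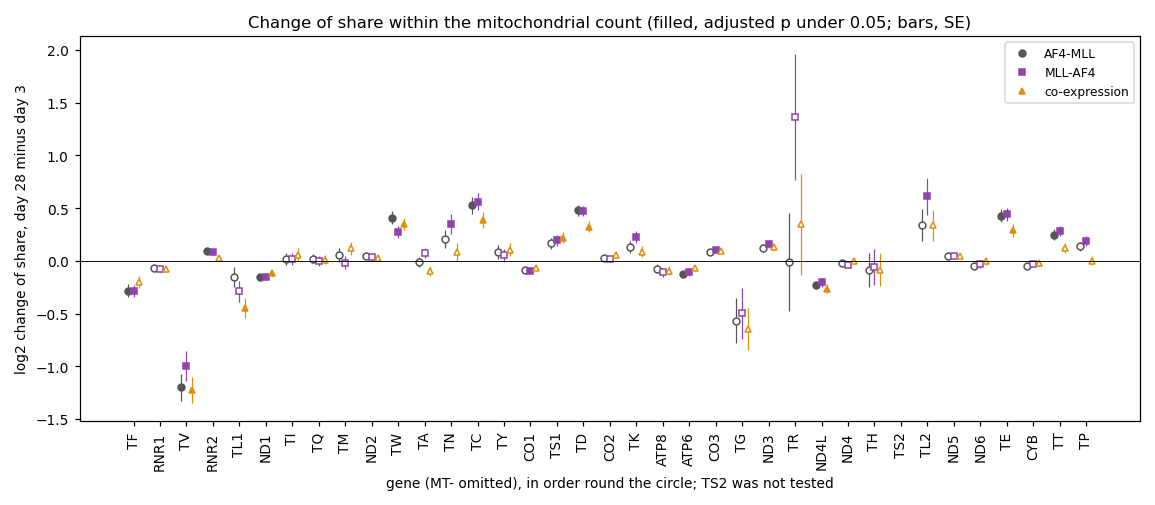
Log2 change of each gene's share of the mitochondrial count from day 3 to day 28 (y axis, edgeR with the mitochondrial total as library size) for the 3 settings, with genes in their order round the circle (x axis), bars for the standard error and filled symbols for adjusted p under 0.05. Protein and rRNA genes lie within −0.26 and 0.16, MT-TV lies far below them (−1.14 averaged), and the largest averaged rise of a called gene is that of MT-TC with 0.49.

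Both rRNA genes passed this test in the averaged contrast, MT-RNR1 with a log2 change of −0.07 ± 0.02 (SE, adjusted p = 0.00157) and MT-RNR2 with 0.07 ± 0.01 (SE, adjusted p = 0.000378). In single settings MT-RNR1 was not called, and MT-RNR2 was called in AF4-MLL cells (log2 change 0.09 ± 0.02 SE, adjusted p = 0.0292) and MLL-AF4 cells (log2 change 0.08 ± 0.02 SE, adjusted p = 0.0331) by edgeR. In co-expression cells its change was 0.03 ± 0.02 (SE, adjusted p = 0.761) in the same fit.

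Complex I genes moved in both directions. MT-ND4L, a small membrane subunit (positions 10470 to 10766), had the largest change of any protein gene, −0.23 ± 0.02 (SE, adjusted p = 5.15e-15) averaged, and was called in each setting. It held 1.56, 1.60 and 1.55% on day 3 and 1.29, 1.33 and 1.40% on day 28 in AF4-MLL cells. MT-ND4L in MLL-AF4 cells held 1.58, 1.51 and 1.57% on day 3 and 1.36, 1.31 and 1.37% on day 28. MT-ND4L with co-expression held 1.51, 1.57 and 1.65% on day 3 and 1.36, 1.30 and 1.29% on day 28. Every day 28 library was below the day 3 libraries of its setting. MT-ND1, a core membrane subunit (positions 3307 to 4262), fell too (log2 change −0.14 ± 0.02 SE, adjusted p = 1.23e-11). Errors given with mean shares are the SD of 3 libraries. MT-ND1 held 5.85% ± 0.0549 on day 3 and 5.27% ± 0.0448 on day 28 in AF4-MLL cells. MT-ND1 in MLL-AF4 cells held 5.84% ± 0.0692 on day 3 and 5.26% ± 0.0371 on day 28. MT-ND1 with co-expression held 5.83% ± 0.274 on day 3 and 5.38% ± 0.0401 on day 28.

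MT-ND3 (positions 10059 to 10404), another small subunit, rose (log2 change 0.14 ± 0.02 SE, adjusted p = 1.07e-06). Its libraries held 1.83, 1.85 and 1.83% on day 3 and 2.0, 2.0 and 1.98% on day 28 in AF4-MLL cells. MT-ND3 in MLL-AF4 cells held 1.84, 1.80 and 1.77% on day 3 and 2.02, 2.02 and 1.99% on day 28. MT-ND3 with co-expression held 1.86, 1.83 and 1.78% on day 3 and 1.99, 1.96 and 2.04% on day 28. MT-ND3 and MT-ND4L are neighbours on the same strand, with only MT-TR between them, and they moved in opposite directions in the 3 settings. MT-ND5, the largest proton-pumping subunit, was called higher by a small amount and held 14.3% ± 0.0649 on day 3 and 14.7% ± 0.172 on day 28 in AF4-MLL cells. MT-ND5 in MLL-AF4 cells held 14.3% ± 0.0771 on day 3 and 14.7% ± 0.121 on day 28. MT-ND5 with co-expression held 14.3% ± 0.215 on day 3 and 14.8% ± 0.165 on day 28. The other 3 were not called. MT-ND2 held 5.49% ± 0.0413 on day 3 and 5.67% ± 0.0439 on day 28 in AF4-MLL cells. MT-ND2 in MLL-AF4 cells held 5.55% ± 0.0576 on day 3 and 5.71% ± 0.0334 on day 28. MT-ND2 with co-expression held 5.54% ± 0.0280 on day 3 and 5.65% ± 0.0504 on day 28. Its day 28 libraries were higher without overlap in each setting. MT-ND4, a proton-pumping subunit, held 9.81% ± 0.0958 on day 3 and 9.64% ± 0.0227 on day 28 in AF4-MLL cells. MT-ND4 in MLL-AF4 cells held 9.84% ± 0.141 on day 3 and 9.56% ± 0.0916 on day 28. MT-ND4 with co-expression held 9.67% ± 0.121 on day 3 and 9.67% ± 0.0233 on day 28. Its averaged change was −0.02 ± 0.01 (SE, adjusted p = 0.395) by edgeR. MT-ND6, the one protein gene transcribed from the other strand, held 3.30% ± 0.0831 on day 3 and 3.20% ± 0.0453 on day 28 in AF4-MLL cells. MT-ND6 in MLL-AF4 cells held 3.24% ± 0.0115 on day 3 and 3.17% ± 0.0550 on day 28. MT-ND6 with co-expression held 3.24% ± 0.0789 on day 3 and 3.23% ± 0.0398 on day 28. The 7 genes summed to 42.2% ± 0.148 on day 3 and 41.8% ± 0.167 on day 28 in AF4-MLL cells. Their sum was 42.1% ± 0.229 on day 3 and 41.8% ± 0.244 on day 28 for MLL-AF4, and 42.0% ± 0.267 on day 3 and 42.1% ± 0.129 on day 28 for co-expression.

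In complex III, MT-CYB, the cytochrome b subunit, held 9.18, 9.25 and 9.19% on day 3 and 9.02, 8.95 and 8.79% on day 28 in AF4-MLL cells. MT-CYB in MLL-AF4 cells held 9.09, 9.08 and 9.06% on day 3 and 8.72, 9.0 and 8.95% on day 28. MT-CYB with co-expression held 9.11, 9.21 and 9.28% on day 3 and 9.01, 9.11 and 9.08% on day 28. The day 28 libraries were lower without overlap in each setting, but the averaged log2 change of −0.03 ± 0.01 (SE, adjusted p = 0.191) did not pass the edgeR test. An exact stratified permutation test of log2 shares, not adjusted over genes, gave p = 0.00025 for MT-CYB and for MT-ND2. For MT-CO2, MT-TY, MT-ND4 and MT-ND6 that exact test gave 0.003, 0.007, 0.008 and 0.035. The other tested members that edgeR did not call had exact p of 0.0935 or more. Which genes count as changed by small amounts thus depended on the test.

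In complex IV the 3 subunits parted. MT-CO1, the catalytic subunit, was lower on day 28 with a log2 change of −0.08 ± 0.01 (SE, adjusted p = 2.96e-06), and held 10.9, 11.1 and 11.0% on day 3 and 10.3, 10.3 and 10.5% on day 28 in AF4-MLL cells. MT-CO1 in MLL-AF4 cells held 11.1, 10.9 and 11.0% on day 3 and 10.4, 10.2 and 10.3% on day 28. MT-CO1 with co-expression held 10.5, 10.8 and 11.0% on day 3 and 10.4, 10.3 and 10.3% on day 28. The day 28 libraries were thus the lower ones throughout. MT-CO3 was higher (log2 change 0.09 ± 0.02 SE, adjusted p = 1.89e-05), with 4.95, 4.80 and 4.93% on day 3 and 5.23, 5.19 and 5.15% on day 28 in AF4-MLL cells. MT-CO3 in MLL-AF4 cells held 4.82, 4.83 and 4.90% on day 3 and 5.24, 5.16 and 5.21% on day 28. MT-CO3 with co-expression held 4.88, 4.84 and 4.79% on day 3 and 5.12, 5.14 and 5.23% on day 28. Neither gene overlapped between days in any setting. MT-CO2, which takes electrons from cytochrome c, was not called (log2 change 0.03 ± 0.02 SE, adjusted p = 0.336) and held 4.71% ± 0.0389 on day 3 and 4.79% ± 0.0659 on day 28 in AF4-MLL cells. MT-CO2 in MLL-AF4 cells held 4.70% ± 0.00870 on day 3 and 4.75% ± 0.0454 on day 28. MT-CO2 with co-expression held 4.61% ± 0.0670 on day 3 and 4.78% ± 0.0690 on day 28.

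Of the ATP synthase subunits, both were lower on day 28. MT-ATP6, part of the proton channel, had a change of −0.10 ± 0.02 (SE, adjusted p = 5.28e-05) and held 3.56, 3.49 and 3.57% on day 3 and 3.22, 3.25 and 3.27% on day 28 in AF4-MLL cells. MT-ATP6 in MLL-AF4 cells held 3.47, 3.49 and 3.50% on day 3 and 3.23, 3.23 and 3.24% on day 28. MT-ATP6 with co-expression held 3.36, 3.45 and 3.50% on day 3 and 3.29, 3.27 and 3.27% on day 28. Its day 28 libraries lay below its day 3 libraries in each setting, and it borders MT-CO3, which went the other way. MT-ATP8 held 1.17% ± 0.0224 on day 3 and 1.11% ± 0.0303 on day 28 in AF4-MLL cells. MT-ATP8 in MLL-AF4 cells held 1.18% ± 0.00329 on day 3 and 1.09% ± 0.0159 on day 28. MT-ATP8 with co-expression held 1.16% ± 0.0830 on day 3 and 1.09% ± 0.0133 on day 28. Its averaged call was lost under some of the other settings tried, and its named nuclear copies held more relative to its own count on day 28.

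The larger changes were in tRNA genes, of which 10 were called higher (MT-TW, MT-TN, MT-TC, MT-TS1, MT-TD, MT-TK, MT-TL2, MT-TE, MT-TT and MT-TP), 4 lower (MT-TF, MT-TV, MT-TL1 and MT-TG) and 7 not (MT-TI, MT-TQ, MT-TM, MT-TA, MT-TY, MT-TR and MT-TH). MT-TV, the valine tRNA gene between the 12S and 16S rRNA genes (positions 1602 to 1670), had the smallest adjusted p of all members, with a log2 change of −1.14 ± 0.08 (SE, adjusted p = 3.18e-29). It held 0.0241, 0.0194 and 0.0227% on day 3 and 0.00848, 0.0105 and 0.0108% on day 28 in AF4-MLL cells. MT-TV in MLL-AF4 cells held 0.0221, 0.0216 and 0.0167% on day 3 and 0.00937, 0.0104 and 0.0106% on day 28. MT-TV with co-expression held 0.0220, 0.0230 and 0.0236% on day 3 and 0.0103, 0.00929 and 0.00894% on day 28. Every day 28 library was below every day 3 library. These shares rested on few reads. The counts in AF4-MLL cells were 128, 28 and 94 on day 3 and 117, 210 and 134 on day 28. The other settings had 70, 64 and 46 against 109, 179 and 105 (MLL-AF4) and 115, 96 and 72 against 249, 129 and 61 (co-expression).

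The 3 tRNA genes that border the rRNA genes were all lower on day 28. MT-TF, for phenylalanine and first on the circle after the control region (positions 577 to 647), had a log2 change of −0.26 ± 0.03 (SE, adjusted p = 1.76e-09), and held 0.372% ± 0.00966 on day 3 and 0.306% ± 0.0150 on day 28 in AF4-MLL cells. MT-TF in MLL-AF4 cells held 0.365% ± 0.00252 on day 3 and 0.299% ± 0.0210 on day 28. MT-TF with co-expression held 0.372% ± 0.0284 on day 3 and 0.324% ± 0.00824 on day 28. MT-TL1, for leucine and downstream of the 16S gene (positions 3230 to 3304), had a change of −0.30 ± 0.06 (SE, adjusted p = 0.000123) and is named here after its value had been seen. Together with MT-RNR1 and MT-ND1, 5 of the first 6 genes of the circle were lower, and MT-RNR2 was the exception.

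The tRNA genes that rose were spread round the circle. MT-TD, for aspartate (positions 7518 to 7585), had a change of 0.43 ± 0.03 (SE, adjusted p = 4.13e-28) and was called in each setting. It held 0.636, 0.580 and 0.649% on day 3 and 0.864, 0.874 and 0.866% on day 28 in AF4-MLL cells. MT-TD in MLL-AF4 cells held 0.640, 0.672 and 0.659% on day 3 and 0.964, 0.879 and 0.892% on day 28. MT-TD with co-expression held 0.718, 0.669 and 0.569% on day 3 and 0.816, 0.804 and 0.833% on day 28. No library of day 28 reached down to the day 3 values. MT-TC, for cysteine (positions 5761 to 5826), had the largest rise of a called member, 0.49 ± 0.04 (SE, adjusted p = 2.25e-18), and held 0.105, 0.0844 and 0.0868% on day 3 and 0.130, 0.133 and 0.141% on day 28 in AF4-MLL cells. MT-TC in MLL-AF4 cells held 0.0973, 0.0994 and 0.0959% on day 3 and 0.158, 0.131 and 0.143% on day 28. MT-TC with co-expression held 0.105, 0.110 and 0.0814% on day 3 and 0.132, 0.129 and 0.128% on day 28. Every day 28 library was above those of day 3 in its setting. MT-TC belongs to a run of 5 tRNA genes around the light-strand replication origin, in which MT-TW (log2 change 0.34 ± 0.03 SE, adjusted p = 1.42e-15) and MT-TN were also higher and MT-TA and MT-TY were not called. MT-TE, for glutamate (positions 14674 to 14742), changed by 0.39 ± 0.04 (SE, adjusted p = 5.39e-18), and MT-TT, for threonine (positions 15888 to 15953), by 0.22 ± 0.03 (SE, adjusted p = 7.25e-10).

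Neighbouring genes did not move together over long stretches. Of the 14 pairs of neighbours among the 15 protein and rRNA genes, 4 pairs had averaged changes of the same sign, and of the 28 pairs among the 29 genes with at least 100 counts in every library, 13 did. Among the 15 protein and rRNA genes the largest absolute difference of mean log2 shares between days was 0.23, a factor of 1.18, with a median of 0.07. For the 14 tRNA genes with at least 100 counts it was 0.50, a factor of 1.42, with a median of 0.17. The share held by tRNA genes without free bases was 0.0536% ± 0.00403 on day 3 and 0.0397% ± 0.00185 on day 28 in AF4-MLL cells, and the means were also lower on day 28 in MLL-AF4 cells (0.0474% to 0.0407%) and co-expression cells (0.0517% to 0.0376%), as values with no test. The lower sum was mainly that of MT-TV, which went from 0.0221 to 0.00992%, from 0.0202 to 0.0101% and from 0.0229 to 0.00950%. Of the others, MT-TL2 had a higher mean on day 28 in each setting. MT-TG and MT-TH had lower means, and MT-TR and MT-TS2 differed in direction between settings. The tRNA genes with 70 or more free bases went from 5.97 to 6.63%, from 5.99 to 6.71% and from 6.11 to 6.49%.

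The third co-expression replicate of day 3, the library least like its group, bore on the co-expression counts. Without it 4 members were called between days in co-expression cells in place of 9. In MLL-AF4 cells 10 to 12 members were called in place of 19 when replicate 1 or 3 of day 3 or replicate 1 of day 28 was left out. The averaged counts were stable, at 23 or 24 members with any library left out.

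The second comparison set the settings against each other on the same day, the study's question of whether single fusions and the pair of fusions act differently. Against the whole library, 0 members were called by edgeR in any of the 6 pairs, where 1.81, 1.28 and 0.142% of all genes were called on day 3 (first the co-expression cells against MLL-AF4, then against AF4-MLL, then the single fusions) and 1.17, 1.69 and 0.0793% on day 28. At an unadjusted p under 0.05 there were 2, 0 and 7 members on day 3 and 0, 0 and 0 on day 28, of 36 members each, where 14.5, 12.3 and 9.55% of all genes were below that value on day 3 and 11.8, 12.7 and 8.26% on day 28. DESeq2 called 0 in each pair. The whole-library estimates on day 3 were imprecise. Log2 differences of the protein genes were −0.37 to −0.33 for AF4-MLL against MLL-AF4 and −0.30 to −0.25 for co-expression against MLL-AF4. For co-expression against AF4-MLL they were 0.03 to 0.10. The SE was 0.20 for MT-ATP8 and 0.26 for MT-ND5. On day 28 the differences were −0.02 to 0.09 over the pairs. The 0 calls therefore do not show that the settings were alike on this scale. Within the mitochondrial total, edgeR also called 0 members, beside 1.8, 1.32 and 0.204% of all genes on day 3 and 1.12, 1.59 and 0.0566% on day 28, and limma gave 0 in each pair. At an unadjusted p under 0.05 by edgeR there were 1, 1 and 0 members on day 3 (14.6, 12.1 and 9.51% of all genes) and 5, 1 and 0 on day 28 (11.6, 12.6 and 8.14%).

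Within the mitochondrial total the estimates were narrow for the long genes. Over the 6 pairs the log2 differences on that scale lay between −0.04 and 0.03 for the 13 protein genes. They lay between −0.04 and 0.05 for the 2 rRNA genes, and between −0.16 and 0.11 for the 14 tRNA genes with at least 100 counts in every library. The smallest adjusted p was that of MT-TD in co-expression against MLL-AF4 cells on day 28, −0.16 ± 0.05 (SE, adjusted p = 0.0941) on the log2 scale by edgeR, where the 3 co-expression libraries held 0.804 to 0.833% and the 3 MLL-AF4 libraries 0.879 to 0.964%. The fit without the third co-expression library of day 3, which changes only the estimate of spread here, brought 1 member past the threshold in this pair. Among the class shares, exact permutation tests of 3 libraries against 3 gave p between 0.1 and 0.9 over the 18 comparisons of settings. For protein and rRNA genes the largest difference was that of co-expression from AF4-MLL cells on day 3, with a protein share lower by 0.621 points (difference −0.621, exact p = 0.1) and an rRNA share higher by 0.459 points (exact p = 0.1). For tRNA genes it was that of co-expression from MLL-AF4 cells on day 28 (difference −0.272 points, exact p = 0.1).

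The third comparison set the change between days of one setting against that of another, within the mitochondrial total only. Whether the changes against the whole library differed between settings was not tested. In the interaction contrasts edgeR called 0 of 36 members for co-expression against MLL-AF4 (0.21% of all genes called), AF4-MLL against MLL-AF4 (0.311%) and co-expression against AF4-MLL cells (0%). At an unadjusted p under 0.05 there were 5, 0 and 4 members, beside 9.66, 9.8 and 5.08% of all genes. The smallest adjusted p was that of MT-TP, −0.19 ± 0.06 (SE, adjusted p = 0.224) for co-expression against MLL-AF4. Its own change by edgeR was 0.19 ± 0.04 (SE, adjusted p = 0.00593) in MLL-AF4 cells and 0.00 ± 0.04 (SE, adjusted p = 0.995) with co-expression. Differences in change were at most 0.06 in absolute log2 value for protein genes, 0.06 for rRNA genes and 0.19 for the 14 tRNA genes with at least 100 counts. Limma called 0 members in these contrasts too.

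The study had singled out 8 of the 37 genes in its RNA experiments (MT-ATP6, MT-CO1, MT-CO2, MT-CO3, MT-CYB, MT-ND4, MT-RNR1 and MT-RNR2). Those experiments used cells with constitutive MLL-AF4 and transient AF4-MLL, without the inducible single-fusion settings. They set reads beside those of mock cells, so that the contrast also differs from that of day 28 with day 3. In these DNA counts the direction of the 8 genes depended on the scale. Against the whole library all 8 rose between days in each setting, as nearly all members did, with log2 changes of 1.68 to 1.90 in AF4-MLL, 1.31 to 1.52 in MLL-AF4 and 1.67 to 1.84 in co-expression cells. Within the mitochondrial total MT-CO3 and MT-RNR2 rose, MT-ATP6, MT-CO1 and MT-RNR1 fell, and MT-ND4, MT-CYB and MT-CO2 were not called in the averaged contrast (edgeR). In no pair of settings was any of the 8 called on either scale.

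The nuclear genes that keep and copy mitochondrial DNA were read from the whole-library fit. Of 16 genes of a list for mtDNA maintenance and transcription (among them POLG, TWNK, POLRMT and SSBP1), all 16 were tested, and edgeR called 0 between days in AF4-MLL and co-expression cells (2 and 1 at an unadjusted p under 0.05, where 9.29 and 9.51% of all genes were) and 1 in MLL-AF4 cells. Of all genes, 0.606% were called in AF4-MLL, 0.606% in co-expression and 2.87% in MLL-AF4 cells, so that 1 of 16 is not far from the background. DESeq2 called 0, 1 and 0 over the settings in the order AF4-MLL, MLL-AF4, co-expression. The called gene was TFAM, which coats mitochondrial DNA and starts its transcription. Its nuclear CPM in MLL-AF4 cells was 206, 150 and 134 on day 3 and 87.7, 87.7 and 88.4 on day 28. Its log2 change there by edgeR was −0.72 ± 0.16 (SE, adjusted p = 0.00194). In AF4-MLL cells the values were 105, 134 and 144 on day 3 and 104, 112 and 114 on day 28, with overlap. With co-expression they were 151, 127 and 160 on day 3 and 108, 109 and 117 on day 28. The days were thus free of overlap with co-expression as well as with MLL-AF4. Of all genes tested, 23.1% (co-expression) and 24.2% (MLL-AF4) did not overlap between days in share. The call was lost when replicate 1 of MLL-AF4 cells on day 3 was left out. These are counts over the TFAM gene in DNA, 40 to 120 reads per library. Of 10 genes for processing of mitochondrial RNA (among them ELAC2, TRMT10C and LRPPRC), 9 were tested and edgeR called 0 in each day contrast (0, 1 and 1 at an unadjusted p under 0.05, where 9.29, 15.8 and 9.51% of all genes were), as did DESeq2. With library size as the only scaling, under which the median of all genes fell by 0.87 to 1.07, 14 to 16 of the 16 and 7 to 9 of the 9 were called, but so were 87.7, 64.9 and 88.1% of all genes.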

How the data were processed

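Chromatin accessibility was measured by ATAC-seq on nuclei of HEK293T cells in 18 libraries, 6 groups of 3. The authors deposited 1 table of raw read counts per gene. The submitters' processing notes name bcl2fastq, Bowtie2 and HTSeq and the build GRCh38, and the counting mode, the strand setting and the treatment of duplicates and of reads with several matches are not given in the sources used here. Replicates were not pooled.

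The 37 genes whose symbol starts with MT- were read from the counts as deposited, and 37 of 37 were matched to RefSeq GRCh38.p14 for position and length. Genes were kept by filterByExpr (minimum count 10, minimum total 15), which left 17660 of 54425 genes and 36 of the 37 members. Tests used edgeR 4.0.16 in R 4.3.3 (quasi-likelihood, one fit over the 6 groups, Benjamini-Hochberg adjustment over 17660 genes, threshold 0.05), once with TMM factors over the whole library and once with the mitochondrial total as library size for members and the TMM-scaled nuclear count for the other genes. The biological coefficient of variation was 7.48% and 6.3%. Class shares were compared by exact permutation tests, two-sided, over 8000 arrangements within settings (smallest p 0.00025) or 20 arrangements of 3 libraries against 3 (smallest p 0.1). Log2 shares of single members were compared between days over the same 8000 arrangements, without adjustment over genes. Alternatives used DESeq2 1.42.0, limma 3.58.1 (log2 of the count plus 0.5), other scalings, filters and denominators, a replicate block and leaving out each library. The scripts were tested on simulated data. Some cell type markers that were measured are not reported here.

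The members, gene lists and tests were chosen with earlier results of these data known. All 37 genes are named. Fitted changes are given for up to 10 members called in the averaged day contrast by adjusted p, up to 3 in each other contrast, the 8 genes of the study's RNA experiments, and called genes of the nuclear lists. Others were named after their values were seen. Errors after ± are SD of 3 libraries for shares and SE for log2 changes. Intervals and floors cover counting error only.

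Same-numbered libraries did not deviate together throughout. Over 45 pairs the correlation of deviations from group means was −0.087 to 0.038 for nuclear genes. For mitochondrial genes it was −0.69 to 0.655 (median −0.009), with 18 of 45 over 0.1. The median for same-numbered libraries was −0.009 for nuclear genes, against 0.005 for other pairs of libraries. For mitochondrial genes the other pairs had a median of 0.032. The numbers were not taken as pairs, under a rule that every pair exceed 0.1, which is strict with 3 libraries per group.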

Additional observations from a re-analysis of the deposited data

How the results depend on the processing

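The averaged day contrast within the mitochondrial total kept 20 of its 24 called genes under every alternative, and MT-ATP8, MT-ND5, MT-RNR1 and MT-RNR2 lost their call at least once. No called gene changed direction there. In the single settings 7 of 11, 6 of 19 and 4 of 9 called genes (AF4-MLL, MLL-AF4, co-expression) were kept under every alternative. In MLL-AF4 cells the 19 calls became 11 with no low-count filter and 10 to 19 with a library left out, fewest without day 3 replicate 1. In co-expression cells the 9 calls became 4 to 9, fewest without day 3 replicate 3, and co-expression against MLL-AF4 cells on day 28 gave 0 to 1 calls.

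With library size as the only scaling the median log2 change over all genes became −1.06, −0.87 and −1.07, and 16, 14 and 16 genes of the mtDNA list and 9, 8 and 7 of the RNA processing list were called, in the same order of settings. MT-TV then changed by −0.48, −0.45 and −0.54 and TFAM in AF4-MLL cells by −1.03. The mtDNA list had 0 to 1 calls in MLL-AF4 cells with a library left out. Library size alone includes the larger mitochondrial part of the day 28 libraries.

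With tRNA genes left out of the total, the protein share changed by −0.649 points in AF4-MLL, −0.549 in MLL-AF4 and 0.0268 in co-expression cells, where the sign turned, and the rRNA share by 0.649 in AF4-MLL cells. The averaged rRNA difference of 0.242 was 0.202 to 0.275 with a library left out and missed the threshold without any of 4 libraries. It also missed it when same-numbered libraries were paired (difference 0.242, replicate block by sign flips, chosen after seeing the data). The replicate block in the edgeR fits gave 24, 11, 19 and 9 calls in the averaged contrast and the 3 settings, as many as without it. Day 3 libraries held fewer mitochondrial counts, so low tRNA genes such as MT-TR and MT-TS2 were limited by depth.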
